A study of Mus musculus with 7 samples.

Results

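The 39 interferon-stimulated genes described here were chosen by name. They are the sensors of foreign nucleic acid, the transcription factors of the interferon response, the ISG15 system, the antiviral effectors, the oligoadenylate synthetases, the interferon-inducible GTPases and 6 further genes of the same program. Of the 39 genes, 38 had probes on the array under the gene name in the scanner files, and all 38 had a probe that passed the signal filter. They are 38 of 22499 gene names kept in all, and were measured by 67 of 56605 probes, of which 60 were kept, among 34284 kept probes. Tgtp1, a GTPase, had no probe by that name and has no value here. Ddx58 is the name in the files for the gene of RIG-I. Mammary gland RNA came from 3 wild-type mice and 4 PRA transgenic mice. All were nulliparous FVB females aged 20 to 25 weeks, and all glands were taken at diestrus. PRA transgenic mice are bigenic animals in which the GAL-4 transactivator, under the cytomegalovirus promoter, turns on a UAS construct for the A form of the progesterone receptor. That promoter is active in many tissues, so expression of the transgene is not bound to the mammary epithelium by design. A single abdominal gland was taken per animal after the lymph nodes had been cut out, and each gland was 1 array. Whole-gland RNA carried Cy5, and Universal Mouse Reference RNA, pooled from 11 mouse cell lines and the same on every array, carried Cy3. Each value is therefore a log2 ratio of gland to reference, and it cannot be compared between probes as a level. Dyes were not swapped on any array.

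Interferons are secreted proteins by which cells that sense viral nucleic acid or other danger warn their neighbors. Type I interferons (alpha and beta) bind a receptor that activates a complex with STAT2 and IRF9, and this complex binds the interferon-stimulated response element in the promoters of its target genes. Interferon gamma, made mainly by T cells and NK cells, acts on gamma-activated sites and is the main inducer of the guanylate-binding proteins and the immunity-related GTPases. Many cells, epithelium and macrophages among them, keep a low level of these genes without infection.

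The response element was looked for in promoters, to show the sequence that links these genes. Promoter windows of 300 bases (250 before the start and 50 after it), from RefSeq on GRCm38.p6, were at hand for 28 of the 39 genes. Zbp1, Usp18, Mx1, Mx2, Parp9, Parp14, Oas2, Rtp4, Iigp1, Gbp4 and Dhx58 had no entry. The core of the element, GAAA followed by any 2 bases and GAAA, was searched on both strands (TTTC, any 2 bases, TTTC on the other strand), and overlapping matches were counted. A match was present in 18 of the 28 genes, each in 1 window, or in 52.9% of their 34 windows, against 3.44% of all 32851 windows. The palindrome of a gamma-activated site, TTC followed by any 3 bases and GAA, was present in 11 of the 34 windows (32.4%), against 8.3% of all windows. The genes were chosen for belonging to this program, so these shares describe the set. The 250 bases before the start are shown for the 4 genes with a match there and the largest log2 fold change in either direction, with each match in capitals, read 5′ to 3′ on the strand of the gene.
Rsad2 (chr12:26456453-26456702, minus strand): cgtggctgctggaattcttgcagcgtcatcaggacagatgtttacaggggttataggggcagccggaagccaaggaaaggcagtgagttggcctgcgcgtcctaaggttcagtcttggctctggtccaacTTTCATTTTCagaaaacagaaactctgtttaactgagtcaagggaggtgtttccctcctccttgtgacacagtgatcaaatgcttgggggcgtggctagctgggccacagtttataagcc
Ifit1 (chr19:34640639-34640888, plus strand): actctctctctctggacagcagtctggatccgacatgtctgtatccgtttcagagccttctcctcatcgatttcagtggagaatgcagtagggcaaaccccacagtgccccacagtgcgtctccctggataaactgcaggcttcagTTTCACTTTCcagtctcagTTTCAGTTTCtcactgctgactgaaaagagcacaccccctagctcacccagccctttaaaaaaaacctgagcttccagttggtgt
Gbp2 (chr3:142620413-142620662, plus strand): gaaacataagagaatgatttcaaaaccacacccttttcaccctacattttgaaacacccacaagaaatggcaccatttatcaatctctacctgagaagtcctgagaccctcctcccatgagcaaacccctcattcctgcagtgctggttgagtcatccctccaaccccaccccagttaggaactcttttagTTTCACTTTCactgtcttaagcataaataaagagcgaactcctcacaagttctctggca
Ifit3 (chr19:34583279-34583528, plus strand): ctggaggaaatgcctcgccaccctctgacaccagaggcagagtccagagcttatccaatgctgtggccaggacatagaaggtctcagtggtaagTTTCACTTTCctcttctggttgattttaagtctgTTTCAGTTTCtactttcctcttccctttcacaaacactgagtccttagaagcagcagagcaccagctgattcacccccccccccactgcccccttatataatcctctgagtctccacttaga
Rsad2 and Gbp2 each had 1 match, which began 120 and 59 bases before the start. Ifit1 and Ifit3 had 2 matches each, from 104 and 85 bases before the start in Ifit1 and from 156 and 122 in Ifit3. None of these 4 stretches held the palindrome. The log2 fold changes of these 4 genes lay on both sides of 0. Among the GTPases, Gbp5, Igtp, Irgm2 and Tgtp1 held both motifs, and the palindrome began 45, 75 and 88 bases before the start in Igtp, Irgm2 and Tgtp1 and at 245 and 52 in Gbp5.

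All 7 arrays lay on 1 slide and were read in 1 scan, and row 1 held wild-type and row 2 PRA transgenic glands. Genotype and row of the slide cannot be told apart. Between 62.6% and 66.1% of probes were well above background in Cy5 on wild-type arrays and between 56.6% and 60.2% on PRA transgenic arrays, and no spot was saturated. The number of arrays limits the precision. Pgr, the gene of the progesterone receptor, had a log2 fold change of -0.65 (SE 0.80, adjusted p = 0.858), and its probe was not matched to the transgene. It stood at 7.05, 4.30 and 4.04 in wild-type replicates 1 to 3 and at 5.38, 4.72, 4.49 and 3.32 in PRA transgenic replicates 1 to 4. Wild-type replicate 1 was thus far above the rest. Markers of T and B cells were high on wild-type replicate 1, and markers of skeletal muscle were high on wild-type replicates 1 and 3 and PRA transgenic replicate 4. In whole-gland RNA, fewer cells of a type and less RNA per cell cannot be told apart.

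To find out whether the interferon program differed with genotype, PRA transgenic glands were compared with wild-type glands by limma over all kept probes, with the kept probe brightest in Cy5 standing for each gene. By that probe Cy5 and Cy3 were each well above background on every array for 37 of the 38 genes, and Mx1 lacked Cy3 on 1 PRA transgenic array. Log2 fold changes are given as PRA transgenic minus wild-type, with their standard error (SE). None of the 38 genes passed an adjusted p under 0.05 (Benjamini-Hochberg over all kept probes, lowest 0.405), and 0.0117% of all kept probes did. At an unadjusted p under 0.05, Rsad2 was higher and Ifit2 was lower in PRA transgenic glands, or 2 of 38 (5.26%), against 9.02% of all kept probes (4.54% higher and 4.48% lower). The same 2 genes were those whose genotypes did not overlap (5.26%, against 9.93% of all kept probes, of which 5.41% higher and 4.52% lower). The median log2 fold change over the 38 genes was -0.12, against 0.02 over all kept probes, and 27 of the 38 (71.1%) lay below 0 and 11 (28.9%) above, against 45.8% and 54.2% of all kept probes. This median moved with single animals, to 0.07 without wild-type replicate 1 and to -0.30 without PRA transgenic replicate 1. Changes ran from -0.66 in Mx1 to 0.66 in Rsad2. In Cy5 alone, scaled to the 75th percentile of each array, the median change was -0.14, and in the Cy3 reference the changes of the 38 genes ran from -0.15 to 0.26.

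**Figure D1:**
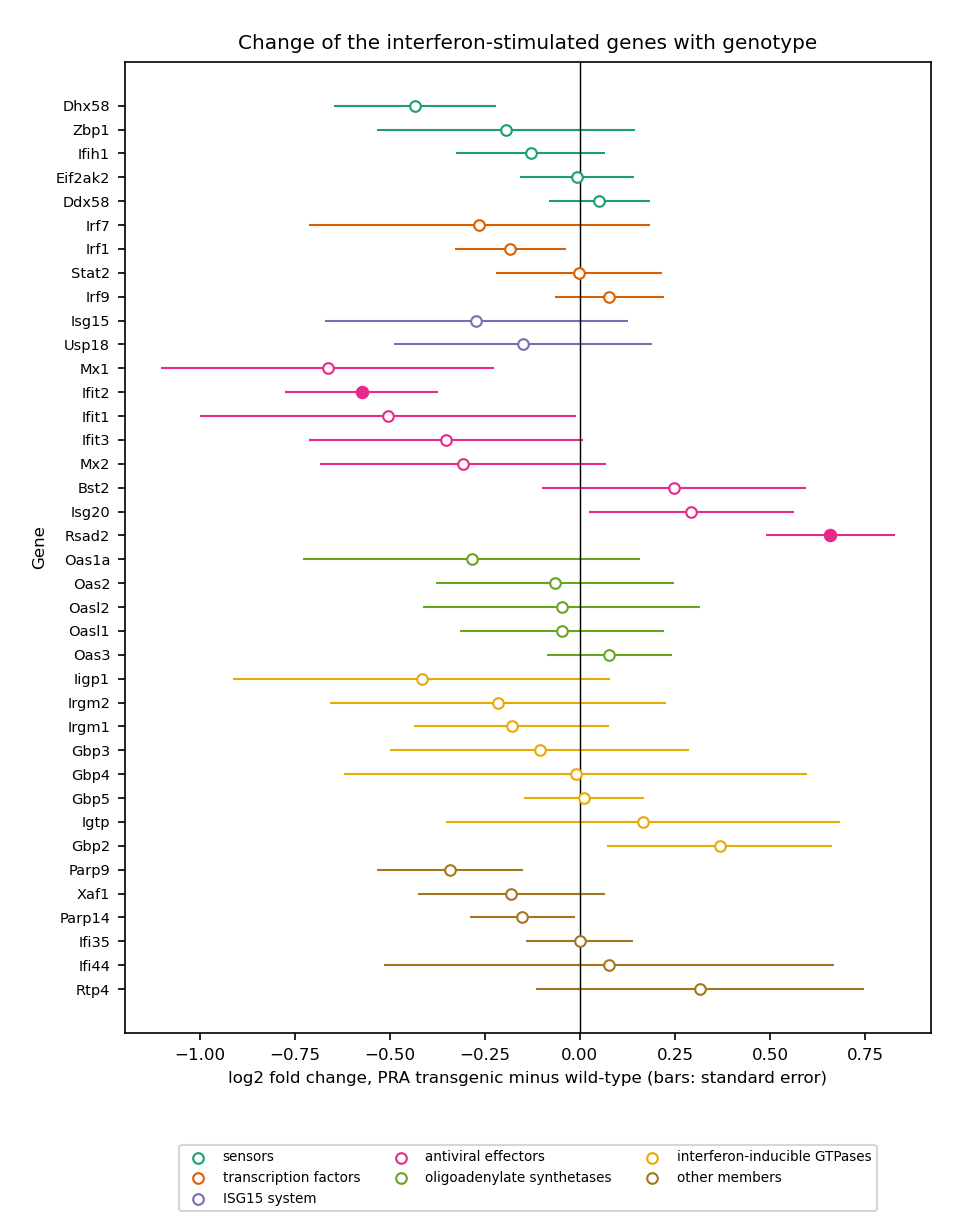
Log2 fold change (PRA transgenic minus wild-type, horizontal axis) of the 38 interferon-stimulated genes, colored by role, with the SE from limma as bars; filled circles have an unadjusted p under 0.05. Only Ifit2 at -0.57 and Rsad2 at 0.66 are filled, and 27 of the 38 points lie below 0.

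The antiviral effectors held both genes with an unadjusted p under 0.05. Rsad2 encodes viperin, an enzyme that makes a chain-terminating nucleotide and blocks the replication of many viruses. Its log2 ratio was -0.23, -0.54 and -0.58 in wild-type replicates 1 to 3 and 0.27, -0.01, 0.06 and 0.51 in PRA transgenic replicates 1 to 4. Each PRA transgenic gland was above each wild-type gland. The log2 fold change was 0.66 (SE 0.17, unadjusted p = 0.00562, adjusted p = 0.405, limma), and in Cy5 alone it was 0.67. A second, dimmer Rsad2 probe had a log2 fold change of 0.70 (SE 0.41, unadjusted p = 0.132, limma), with genotypes that overlapped and a reference above background on 2 of 7 arrays. Its Cy5 was above background on 2 wild-type and 4 PRA transgenic arrays. It thus passed the signal filter through PRA transgenic glands alone and adds no separate support. The brighter probe lies at chr12:27127859-27127918 of mm9, as the files place it.

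Ifit2, whose protein binds viral RNA and slows translation, was lower in PRA transgenic glands. It stood at -0.45, -0.78 and -0.80 in wild-type replicates 1 to 3 and at -1.0004, -1.19, -1.71 and -1.09 in PRA transgenic replicates 1 to 4. All PRA transgenic glands were below all wild-type glands. The log2 fold change was -0.57 (SE 0.20, unadjusted p = 0.0239, adjusted p = 0.473, limma). Its probe lies at chr19:34650244-34650303 of mm9. In Cy5 alone the change was -0.33, with an unadjusted p of 0.128. The Cy3 reference of this probe, the same RNA throughout, was higher by 0.26 on the PRA transgenic arrays. The difference was -0.46 with wild-type replicate 1 left out, and its unadjusted p no longer passed 0.05.

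Ifit1 and Ifit3 lie beside Ifit2 and encode proteins of the same family. Ifit1 stood at 0.70, -0.95 and -0.15 in wild-type and at 0.41, -0.86, -1.19 and -0.92 in PRA transgenic glands, for a difference of -0.51 (SE 0.49). Ifit3 had -0.35 (SE 0.36). For both, replicate 1 of each genotype was the highest array and the genotypes overlapped. Ifit3b, a near-identical copy of Ifit3 that may share its signal, had -0.46.

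Mx1 and Mx2 encode dynamin-like GTPases that trap viral nucleocapsids, and Mx1 had the lowest log2 fold change of all 38 genes. Mx1 stood at 2.09, 0.19 and 0.71 in wild-type and at 0.76, 0.02, 0.16 and 0.38 in PRA transgenic glands. Wild-type replicate 1 was far above the rest and the genotypes overlapped. The log2 fold change of -0.66 (SE 0.44, adjusted p = 0.709, limma) became -0.12 without that animal. Mx2 had -0.31 (SE 0.38). A second Mx1 probe, dimmer, had -0.85 (SE 0.58), with the reference above background on no array. Its Cy5 was above background on 3 wild-type and 2 PRA transgenic arrays. It thus passed the signal filter through wild-type glands alone and adds no separate support.

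Isg20, an exonuclease of RNA and the brightest effector in Cy5, stood at -0.81, -1.04 and -0.90 in wild-type and at -1.25, -0.08, -0.75 and -0.41 in PRA transgenic glands. Here PRA transgenic replicate 1 was the lowest array and the other 3 PRA transgenic glands were above all wild-type glands. The log2 fold change was 0.29 (SE 0.27), and the second Isg20 probe had the opposite sign at -0.10 (SE 0.22). Bst2, encoding tetherin, which holds budding virus at the cell surface, had 0.25 (SE 0.35). Of the 8 effectors, 5 lay below 0 and 3 above.

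**Figure D2:**
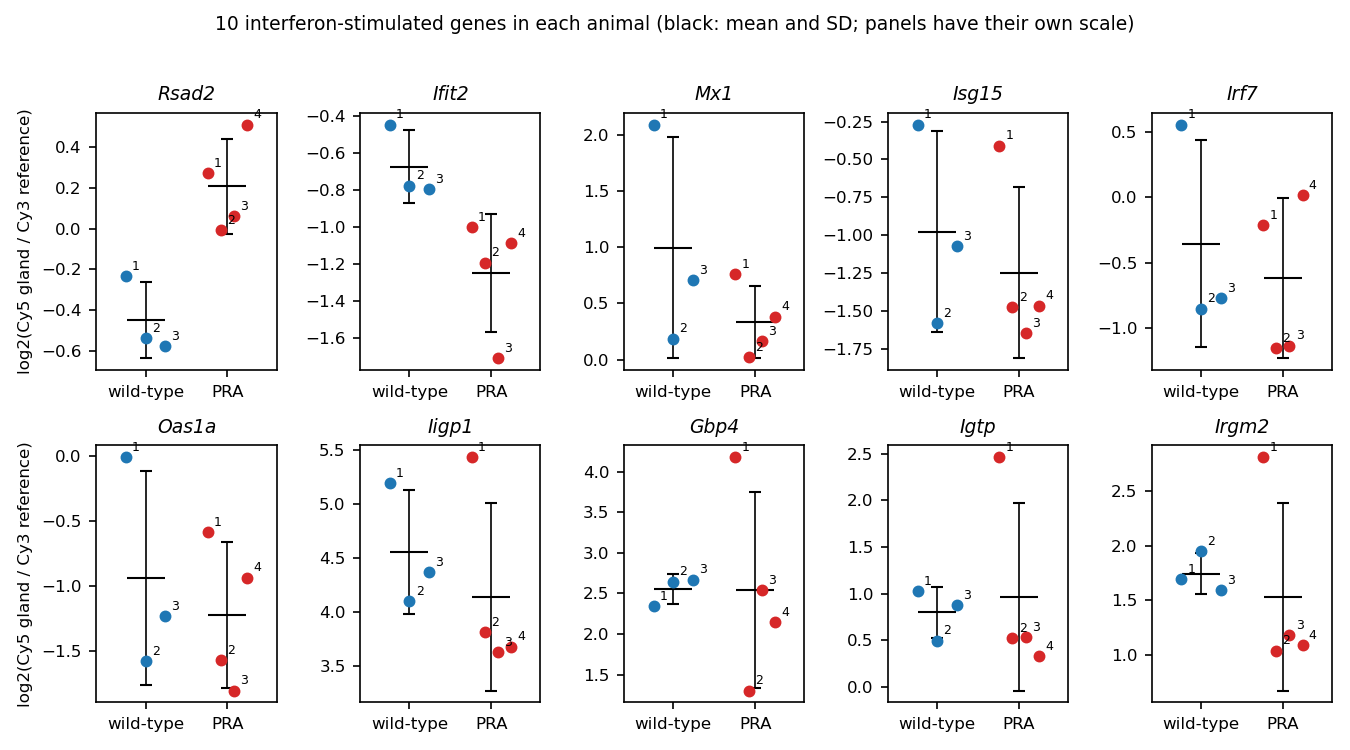
Log2 ratio of Cy5 (gland) to Cy3 (reference) of 10 interferon-stimulated genes in each animal, with replicate numbers beside the points and the mean and SD of each genotype in black; each panel has its own vertical scale. Rsad2 and Ifit2 separate the genotypes, whereas replicate 1 is the highest array of its genotype for Isg15 in both genotypes and PRA transgenic replicate 1 is the highest of all 7 arrays for Iigp1, Gbp4, Igtp and Irgm2.

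No sensor passed an unadjusted p of 0.05 by its brightest probe. Ifih1 (MDA5), Ddx58 (RIG-I) and Dhx58 (LGP2) recognize viral double-stranded RNA, Zbp1 binds Z-form nucleic acid and Eif2ak2 (PKR) stops translation when it binds double-stranded RNA. Dhx58 had the largest difference between genotypes, at 1.00, 0.49 and 0.50 in wild-type and 0.64, 0.11, -0.07 and 0.23 in PRA transgenic glands. Of the PRA transgenic glands only replicate 1 reached into the wild-type range, and the log2 fold change was -0.43 (SE 0.21, unadjusted p = 0.0809, adjusted p = 0.605, limma). Without that animal it was -0.57, with an unadjusted p of 0.0227. Ddx58, the brightest sensor in Cy5, stood at 0.30, 0.13 and 0.36 in wild-type and at 0.42, 0.47, 0.16 and 0.21 in PRA transgenic glands. The genotypes overlapped, and the log2 fold change was 0.05 (SE 0.13). Its 3 dimmer probes stood at -0.12, 0.48 and -0.45, the last with a reference above background on 1 of 7 arrays, and the probe at 0.48 had genotypes that did not overlap (unadjusted p = 0.0202, limma). The probe at -0.45 had Cy5 above background on 3 of 4 PRA transgenic arrays, so it passed the signal filter through wild-type glands alone. Zbp1 had -0.19, Ifih1 -0.13 and Eif2ak2 -0.0067, each within its SE.

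Irf7, the master factor of type I interferon production and itself a target of the response, had the largest change among the transcription factors. It stood at 0.55, -0.85 and -0.77 in wild-type and at -0.21, -1.15, -1.13 and 0.02 in PRA transgenic glands. Wild-type replicate 1 and PRA transgenic replicates 1 and 4 were high and the other 4 arrays low, in both genotypes. The log2 fold change was -0.26 (SE 0.45, adjusted p = 0.908, limma), and without wild-type replicate 1 it was 0.19. Irf1, a factor induced strongly by interferon gamma and the brightest of the 4, stood at 0.78, 0.99 and 0.75 in wild-type and at 0.88, 0.61, 0.43 and 0.73 in PRA transgenic glands. Only PRA transgenic replicate 1 lay within the wild-type range, and the log2 fold change was -0.18 (SE 0.15). The dimmer Irf1 probe had the opposite sign, at 0.22 (SE 0.14).

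Stat2 and Irf9 encode members of the complex that forms in response to type I interferon. Stat2 had a log2 fold change of -0.0022 (SE 0.22) and Irf9 of 0.08 (SE 0.14). A dimmer Stat2 probe differed, at -0.49, -0.72 and -0.66 in wild-type and 2.20, 0.06, 1.11 and -0.30 in PRA transgenic glands. Its genotypes did not overlap, with a log2 fold change of 1.39 (SE 0.57, unadjusted p = 0.0433, adjusted p = 0.537, limma), but on the 4 PRA transgenic arrays its Cy3 reference was above background on 1 and its Cy5 on 3. The change was 1.06 in Cy5 alone, and the reference, above background on all 3 wild-type arrays, was lower by 0.32 on the PRA transgenic arrays. The PRA transgenic ratios of this probe thus rest on a reference near background. Most of the difference lay in Cy5, but Cy5 itself was not above background on every PRA transgenic array. This probe passed the signal filter through wild-type glands alone, and the brighter Stat2 probe showed no such difference. The dimmer Irf9 probe had -0.04.

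Isg15, a ubiquitin-like protein that is joined to other proteins during the response, and Usp18, the protease that removes it and dampens the type I receptor, moved alike from animal to animal. Isg15 stood at -0.27, -1.58 and -1.07 in wild-type and at -0.41, -1.47, -1.65 and -1.47 in PRA transgenic glands. Usp18 stood at -1.28, -2.46 and -2.30 and at -1.61, -2.50, -2.40 and -2.13. In both genes replicate 1 was the highest array of its genotype, by 0.80 or more over the next for Isg15 and by 0.51 or more for Usp18, and the genotypes overlapped. The log2 fold changes were -0.27 (SE 0.40) and -0.15 (SE 0.34).

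The oligoadenylate synthetases make the messenger molecule that activates RNase L, and Oasl1 and Oasl2 are their relatives. Of the 5 genes, 4 lay below 0, and all 5 changes were within their SEs. Oas1a, both the brightest and the most changed, stood at -0.01, -1.58 and -1.23 in wild-type and at -0.59, -1.57, -1.81 and -0.94 in PRA transgenic glands. Its log2 fold change was -0.28 (SE 0.44), and without wild-type replicate 1 it was 0.18. Oas1a and Oas1g are near-identical copies whose signal may be shared, and the Oas1g probe had -0.38. Oas2 had -0.06, Oas3 0.08, Oasl2 -0.05 and Oasl1 -0.05, with 0.04 for the second Oasl1 probe.

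Among the interferon-inducible GTPases, some of which attack the membranes around pathogens inside the cell, 5 of 8 lay below 0 and no unadjusted p was under 0.05. For all 8 genes PRA transgenic replicate 1 was the highest PRA transgenic array. Gbp4, a guanylate-binding protein, stood at 2.35, 2.64 and 2.67 in wild-type and at 4.18, 1.30, 2.54 and 2.15 in PRA transgenic glands. Igtp, the immunity-related GTPase Irgm3, stood at 1.02, 0.49 and 0.88 and at 2.47, 0.53, 0.53 and 0.33, and Irgm2 at 1.69, 1.95 and 1.59 and at 2.81, 1.04, 1.18 and 1.08. These 3 genes were singled out after their values were seen. PRA transgenic replicate 1 exceeded the other 3 PRA transgenic glands on average by 2.19 in Gbp4, 2.01 in Igtp and 1.72 in Irgm2, whereas the genotype means differed by -0.01, 0.17 and -0.22.

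Iigp1, which coats the vacuole of Toxoplasma, had the largest change with genotype in this group. It stood at 5.20, 4.10 and 4.37 in wild-type and at 5.43, 3.82, 3.63 and 3.68 in PRA transgenic glands. By this probe replicate 1 was the highest array in each genotype, and the other 3 PRA transgenic glands were below all wild-type glands. A dimmer Iigp1 probe stood at 1.85, 1.88 and 3.44 in wild-type and at 4.42, 0.46, 2.22 and 1.11 in PRA transgenic glands. There wild-type replicate 1 was the lowest wild-type array. The reference of the dimmer probe was above background on 1 wild-type and 1 PRA transgenic array. By the brighter probe the log2 fold change was -0.42 (SE 0.50), and without PRA transgenic replicate 1 it was -0.85 (unadjusted p = 0.0262, limma). In Cy5 alone it was -0.20, and the Cy3 reference was higher by 0.22 on the PRA transgenic arrays. Irgm2, Gbp2 and Gbp3 changed more in Cy5 alone, at -0.31, 0.27 and -0.26. The dimmer probe had -0.33 (SE 0.94). Gbp2, the brightest of the group, stood at 2.37, 2.50 and 2.22 in wild-type and at 3.49, 2.21, 2.45 and 2.76 in PRA transgenic glands, with a log2 fold change of 0.37 (SE 0.30). Gbp3 had -0.11 and Irgm1 -0.18, with -0.16 and 0.04 for the 2 further Irgm1 probes.

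Gbp5 had 2 probes of almost equal Cy5 signal, of which the second had its Cy3 reference above background on 1 of 7 arrays. The brighter probe stood at -0.22, 0.04 and -0.45 in wild-type and at -0.04, -0.39, -0.23 and -0.15 in PRA transgenic glands. The other stood at 3.39, 3.88 and 3.66 and at 5.70, 2.65, 2.58 and 3.30. PRA transgenic replicate 1 was the highest of its genotype by both. Their log2 fold changes were 0.01 and -0.09, and the values of the second probe rest on a reference near background.

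None of the remaining 6 genes of the program had an unadjusted p under 0.05 by its brightest probe. Parp9, an ADP-ribosyltransferase that works with Dtx3l, stood at 1.32, 1.73 and 1.75 in wild-type and at 1.47, 1.49, 0.93 and 1.15 in PRA transgenic glands, for a difference of -0.34 (SE 0.19, unadjusted p = 0.119, limma). Its 3 dimmer probes had 0.61, 0.27 and -0.71. The reference of the first was above background on 3 wild-type and 0 PRA transgenic arrays, and that of the other 2 on no array. The probe at -0.71 had Cy5 above background on 3 wild-type and 2 PRA transgenic arrays, so it passed the signal filter through wild-type glands alone. Ifi35, a partner of Nmi and the brightest of these genes, stood at 0.73, 0.61 and 0.43 and at 0.77, 0.38, 0.56 and 0.66, with a log2 fold change of -0.00020 (SE 0.14) and 0.13 for its second probe. Rtp4, a chaperone of receptors, had 0.32 (SE 0.43), Ifi44 0.08 (SE 0.59), Xaf1, a cofactor of apoptosis, -0.18 (SE 0.25) and Parp14 -0.15 (SE 0.14). The second probes of Xaf1 and Parp14 had the opposite sign, at 0.36 and 0.15.

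In 33 of the 38 genes the genotype means differed by less than the residual SD between animals of 1 genotype, and in 5 (Rsad2, Ifit2, Dhx58, Parp9 and Irf1) by more. Wild-type replicate 1 was the highest wild-type array in 30 of the 38 genes (78.9%), against 29.1% of all kept probes with a value on every array. PRA transgenic replicate 1 was the highest PRA transgenic array in 31 of the 38 genes (81.6%), against 31.7% of all such probes, and replicate 3 of that genotype was the highest in 0 of 38. With each gene centered on its median over the 7 arrays, the median of the 38 genes was 0.50 on wild-type replicate 1 and 0.66 on PRA transgenic replicate 1, and it ran from -0.18 to 0.00 on the other 5 arrays. The same was seen in Cy5 alone, with 0.49 and 0.60 on these 2 arrays and -0.22 to 0.00 on the others. In the Cy3 reference the median lay between -0.0073 and 0.0074 on all 7 arrays. The 2 arrays lay in column 1 of the slide, each in its own row.

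**Figure D3:**
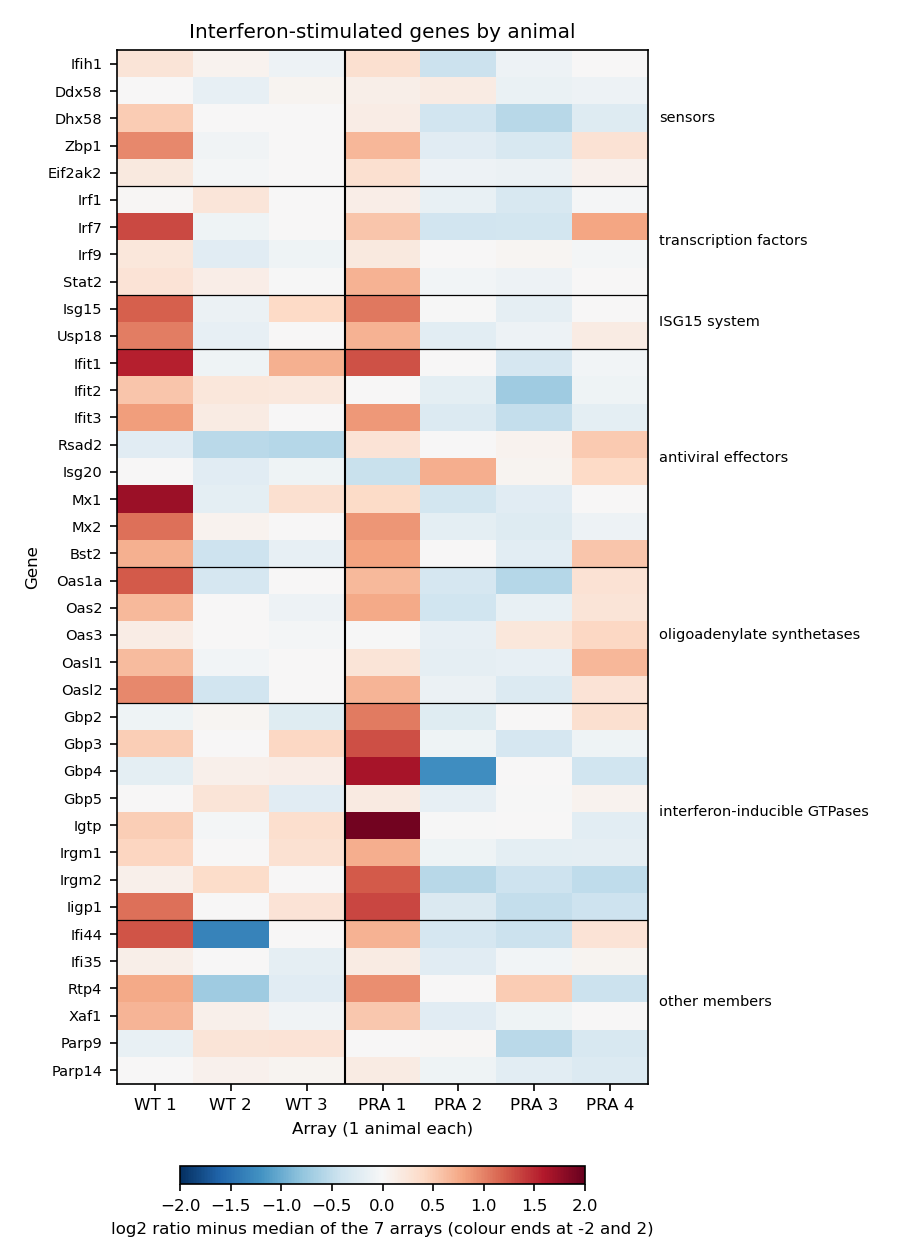
Log2 ratio of each of the 38 interferon-stimulated genes (rows, by role) on each array (columns), minus the median of that gene over the 7 arrays. Wild-type replicate 1 and PRA transgenic replicate 1 are red in most rows, with medians of 0.50 and 0.66, and the GTPases are strongest on PRA transgenic replicate 1.

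The 2 animals differed in which of these genes stood highest. Over the 30 genes that are not GTPases, wild-type replicate 1 was the highest of its genotype in 26 and PRA transgenic replicate 1 in 23. Over the 8 GTPases the counts were 4 and 8. Wild-type replicate 1 exceeded the mean of the other 2 wild-type glands by a median of 0.66 in the 30 genes and of 0.15 in the 8 GTPases. PRA transgenic replicate 1 exceeded the mean of the other 3 PRA transgenic glands by a median of 0.56 in the 30 genes and of 1.59 in the GTPases. Wild-type replicate 1 exceeded its group by over 1 in 11 genes, none of them a GTPase, and PRA transgenic replicate 1 did so in 10 genes, 6 of them GTPases. This difference between animals has no replicate and was not tested.

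Markers of other cell types were set beside these values, since lymphocytes, myeloid cells and epithelium carry many of these genes. The mean log2 ratio of 8 of 9 listed T cell genes that were kept was 1.90 on wild-type replicate 1, between -0.32 and 0.10 on the other 2 wild-type arrays and between -0.55 and -0.12 on the PRA transgenic arrays. Over the 7 of these with both channels above background on every array, it was 1.45 on wild-type replicate 1 and between -0.69 and -0.06 on the other 6. For 4 of 6 B cell genes the mean was 0.76 on wild-type replicate 1 and between -1.62 and -0.78 on the other 6 arrays. Cd3e was at -0.05 on that array and at -1.12 to -0.77 on the others, Ms4a1 at -0.23 and at -5.26 to -3.85. The mean of plasmacytoid dendritic cells (7 of 7 genes, Bst2 among them) was 0.71 on wild-type replicate 1 and between -0.22 and 0.10 on the others. Over the 6 of these with both channels above background on every array, it was 0.46 and between -0.11 and 0.26. Their genes did not move alike. Spib was at 2.22 on wild-type replicate 1 and at -1.74 to 1.13 on the others, whereas Siglech was at 0.67 and at 0.57 to 1.42. The mean of neutrophils (6 of 6) was highest on wild-type replicate 1, at 1.89. Wild-type replicate 1 was thus the array highest both in lymphocyte markers and in Mx1, Irf7, Isg15 and Oas1a, and the part of these cells in the values was not tested.

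On PRA transgenic replicate 1, the T cell mean was -0.12, beside -0.55 to -0.13 on the other PRA transgenic arrays, and the B cell mean was -1.57, beside -1.59 to -0.78. The NK cell mean (5 of 6 genes) was 2.58, inside the range of 2.09 to 2.72 of the other PRA transgenic arrays, and the macrophage mean (8 of 8) was 1.96, beside 1.97 to 2.66. The mean of white adipocytes (7 of 7) was the highest of the 7 arrays, at 6.09 against 5.39 to 5.70. So was that of endothelium (8 of 8), at 4.74 against 4.20 to 4.67. The means of conventional dendritic cells (1.34), neutrophils (0.66) and fibroblasts (2.20) were the lowest of the 7 arrays. Over genes with both channels above background on every array, endothelium was no longer highest and neutrophils no longer lowest on this array. The mean of luminal epithelium (8 of 8) was highest on the same 2 arrays as the interferon-stimulated genes, at 3.59 on wild-type replicate 1 and 3.46 on PRA transgenic replicate 1, against 2.88 to 3.23 on the others. Over the 6 luminal genes with both channels above background on every array it was 2.38 on wild-type replicate 1 and 1.91 on PRA transgenic replicate 1, against 1.49 to 2.02. PRA transgenic replicate 1 was then inside the range of the others. The luminal genes did not move alike on that array. Elf5 (7.23), Prlr (8.99) and Cited1 (5.06) were at their highest of the 7 arrays. Krt8 (-0.11), Krt18, Krt19, Epcam (0.63) and Esr1 were inside the range of the others. The part of these cell types in the values was not tested. Without wild-type replicate 1 and PRA transgenic replicate 1, 15 of the 38 genes had genotypes that did not overlap (39.5%, against 25.2% of all kept probes in that comparison of 2 against 3 arrays), and 4 had an unadjusted p under 0.05 (10.5%, against 7.83%). Of the 15 genes, 12 were lower and 3 higher in PRA transgenic glands. These 2 arrays were left out after they were seen to be the highest in these same genes. That choice narrows the spread of these genes by construction, so the shares over all probes are no fair yardstick here and no conclusion is drawn.

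**Figure D4:**
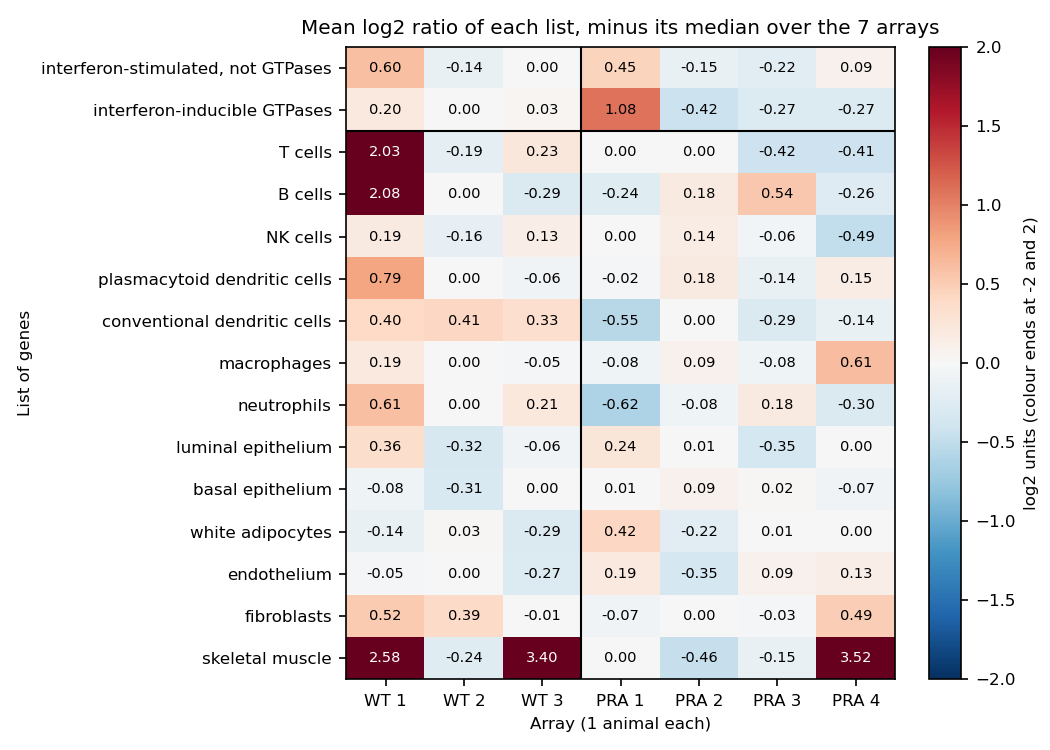
Mean log2 ratio of the interferon-stimulated genes (GTPases and the others) and of 13 lists of cell type markers on each array, minus the median of each list over the 7 arrays; rows are lists and columns are arrays. Wild-type replicate 1 is high in T cells (2.03) and B cells (2.08), while PRA transgenic replicate 1 is high in the GTPases (1.08) and at 0.00 and -0.24 for T and B cells.

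Of the 7 arrays left out in turn, PRA transgenic replicate 1 gave the highest counts. Without it, 9 of the 38 genes had an unadjusted p under 0.05 (23.7%, against 8.79% of all kept probes) and 12 had genotypes that did not overlap (31.6%, against 15.3%). Dhx58, Ifit2, Ifit3, Gbp3, Irgm1, Irgm2 and Iigp1 were lower in PRA transgenic glands by this p, and Rsad2 and Isg20 were higher. Irgm2 then had a log2 fold change of -0.65 (unadjusted p = 0.00387, limma). PRA transgenic replicate 1 was the highest array of its genotype in 31 of the 38 genes. Leaving it out narrows the spread of these genes and lowers their PRA transgenic means by construction. The shares over all probes are thus no fair yardstick for these counts, and no conclusion is drawn from them. Without wild-type replicate 1, only Rsad2 had an unadjusted p under 0.05. No gene passed an adjusted p under 0.05 when any array was left out.

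The spread within a genotype was wide for many of these genes. The residual SD of the log2 ratio had a median of 0.45 over the 38 genes, against 0.27 over all kept probes. Since dim probes vary more, each gene was also set against kept probes in the same bin of Cy5 signal. By this measure 28 of the 38 genes were above the median, 25 above the 75th percentile and 18 above the 90th. Gbp4 (0.94), Ifi44 (0.92) and Igtp (0.80) had the widest spread and Ddx58 (0.14) the narrowest. Rsad2 had an SD of 0.22, close to the median of probes of its brightness.

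**Figure D5:**
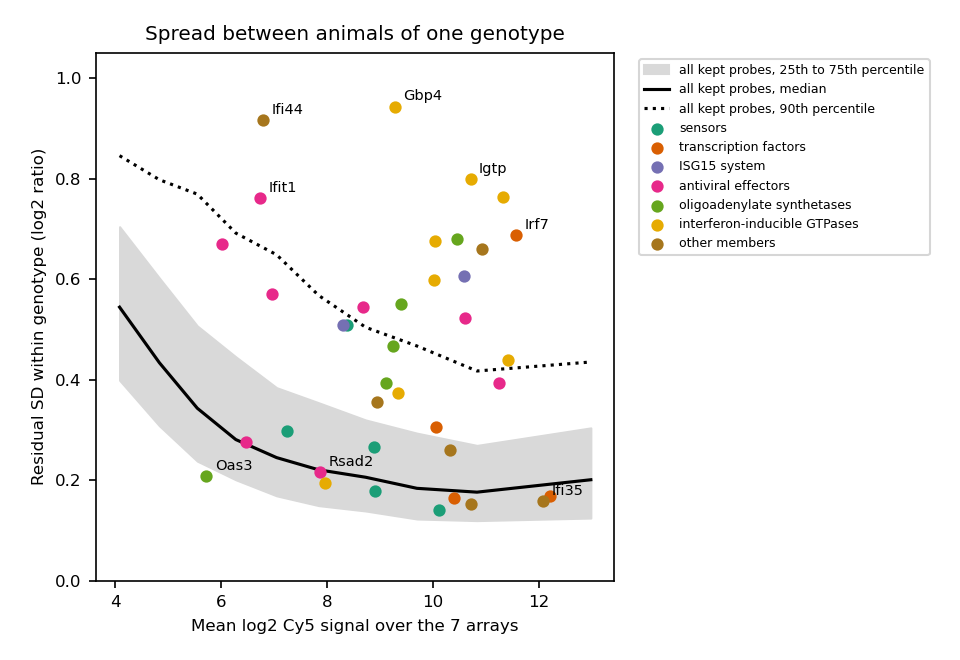
Residual SD of the log2 ratio within genotype (vertical axis) against mean log2 Cy5 signal over the 7 arrays (horizontal axis) for the 38 interferon-stimulated genes, with the median, the 25th to 75th percentile and the 90th percentile of all kept probes in bins of similar signal. Of the 38 genes, 18 lie above the 90th percentile, with Gbp4 at 0.94, and Rsad2 lies near the median at 0.22.

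The wider interferon pathway was taken from a list of 121 further genes, of which 102 had a kept probe. Of these, 69 lay below 0 (67.6%, against 45.8% of all kept probes) and 33 above, 4 were lower and 2 higher at an unadjusted p under 0.05 (5.88%, against 9.02%), and none passed an adjusted p under 0.05 (lowest 0.405). All 6 receptor genes were kept. Ifnar1 and Ifnar2, the type I receptor, had log2 fold changes of 0.23 (SE 0.19) and -0.06 (SE 0.14). Ifngr1 and Ifngr2, the receptor of interferon gamma, had -0.21 (SE 0.16) and -0.21 (SE 0.15). Ifnlr1 and Il10rb, the receptor of interferon lambda, had -0.43 (SE 0.45) and -0.45 (SE 0.23). No receptor had an unadjusted p under 0.05.

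Socs1, an inhibitor of JAK kinases that interferon induces, stood at -0.53, -0.56 and -0.9991 in wild-type and at -1.22, -1.51, -1.54 and -1.05 in PRA transgenic glands. Its genotypes did not overlap, and the log2 fold change was -0.63 (SE 0.19, unadjusted p = 0.0107, adjusted p = 0.421, limma). For Socs1, wild-type replicate 1 lay beside wild-type replicate 2, and PRA transgenic replicate 1 lay inside the range of the other PRA transgenic glands.

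Of 20 interferon genes 8 had a kept probe. Ifnk, the interferon of keratinocytes, was well above background in Cy5 on all 3 wild-type arrays and on 0 of 4 PRA transgenic arrays, so it passed the signal filter through wild-type glands alone. Because the wild-type signal itself let this gene pass, no fold change between the genotypes is drawn from it. PRA transgenic arrays also had fewer probes above background in general. The Cy3 reference of Ifnk was above background on no array, so its log2 ratio is not given as a measurement. Ifna9 had a log2 fold change of 0.89 (SE 0.27), but 0.02 in Cy5 alone, with the reference lower by 0.86 on the PRA transgenic arrays, where it was above background on none. Ifng, named after its values were seen as the inducer of the GTPases, stood at 2.28, 2.63 and 3.33 in wild-type and at 2.09, 2.24, 1.77 and 0.24 in PRA transgenic glands, with the reference above background on no array, so that these ratios give no firm order of the arrays. Its Cy5 was above background on all 3 wild-type and on 3 of 4 PRA transgenic arrays. Ifng too thus passed the filter through wild-type glands alone, and no difference between the genotypes is drawn from it.

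Of the 65 other interferon-stimulated genes kept in this list, wild-type replicate 1 was the highest of its genotype in 38 (58.5%) and PRA transgenic replicate 1 in 39 (60%). The 6 further Gbp genes of the list were all highest on PRA transgenic replicate 1 among the PRA transgenic arrays, with a median excess of 1.76 over the mean of the others, and for wild-type replicate 1 the count was 3 of 6. Some probes of Gbp genes may share signal, since these genes are close copies of each other.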

How the data were processed

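Mammary gland RNA of 3 wild-type mice and 4 PRA transgenic mice was hybridized to 7 arrays against a common reference. Scanner files of Agilent Feature Extraction (version 12.0 in the submitters' processing notes) were deposited for each array. The deposited processed intensities carry background subtraction, a spatial detrend and a dye normalization within each array, with surrogates in place of dim signals, and the files place probes on mm9. A table of log2 values for the series, deposited beside them, equals the ratio of processed intensities on the log2 scale minus the median of each probe over the arrays, and served as an alternative. Since dim signals are replaced and dyes scaled within an array, ratios of probes near background depend on the reference channel as much as on the gland.

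The Cy5 to Cy3 ratio was taken on the log2 scale. Outlier and control spots were dropped, and replicate spots were averaged by probe. A probe was kept if in at least 1 genotype every array had Cy5 well above background. The genotypes were compared by limma 3.58.1 (lmFit, eBayes; R 4.3.3; two-sided), with Benjamini-Hochberg adjustment over the kept probes, and the steps were tested on simulated data. The kept probe brightest in Cy5 stood for a gene. Replicates are separate animals. Replicate numbers were not found to pair the samples.

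The genes, the marker and pathway lists and the tests were chosen with earlier results of these data known. Values per array are given for genes with an unadjusted p under 0.05 or genotypes that do not overlap, and in each role for the gene with the largest log2 fold change and the brightest gene. Genes whose kept probes have opposite signs are named with values. Of the pathway list, values are given for the receptors and genes with an unadjusted p under 0.05 and genotypes that do not overlap. Other genes shown by array are Ifit1, Usp18, Gbp4, Igtp, Irgm2, Gbp5 and Ifng, chosen after their values were seen. Alternatives were the series table, normexp (offset 50) with loess, quantile normalization, Cy5 alone, a stricter filter on dim probes and none, array weights, an intensity trend, the methods' t-test, the replicate number as a block, the median over probes, each array left out, the 3 arrays high in skeletal muscle markers left out and, added after seeing the data, replicate 1 of both genotypes left out. The slide could not be fitted as a block, since there was 1 slide. Promoter windows came from RefSeq on GRCm38.p6. The position of probes within exons or untranslated regions was not analysed here. One gene that the rule names is not reported here.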

Additional observations from a re-analysis of the deposited data

Results flagged for a closer look

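In the group of 4 PRA transgenic arrays, the gap of 1 array to the others exceeded Dixon's critical value for the ratio of gap to range in 10 of 52 values examined, where chance flags about 1 in 20. Of the 38 genes, 8 were among them, and in all 8 PRA transgenic replicate 1 was the high array. The ratio of gap to range was 0.868 for Stat2 (log2 ratio 0.81, against 0.0066 to 0.11 on the other 3 arrays), 0.855 for Isg15 (-0.41, against -1.65 to -1.47) and 0.868 for Mx2 (0.55, against -0.58 to -0.43). It was 0.843 for Gbp3 (2.63, against 1.00 to 1.26), 0.905 for Igtp (2.47, against 0.33 to 0.53) and 0.896 for Irgm1 (0.55, against -0.37 to -0.28). It was 0.921 for Irgm2 (2.81, against 1.04 to 1.18) and 0.896 for Iigp1 (5.43, against 3.63 to 3.82). These genes share 1 animal, so they are not independent of each other. The other 2 values were list means on PRA transgenic replicate 4. Skeletal muscle had a ratio of 0.885 (3.08, against -0.90 to -0.44) and fibroblasts of 0.87 (2.76, against 2.20 to 2.27).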

How the results depend on the processing

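No gene passed an adjusted p under 0.05 in limma under any alternative with at least 2 arrays per genotype. The median log2 fold change over the 38 genes, -0.12 as reported, did not keep its sign. It ran from -0.30 without PRA transgenic replicate 1 to 0.09 without the 3 arrays high in skeletal muscle markers. The median of these genes on single arrays had an SD between replicates of 0.36. Replicate 1 of each genotype widens that SD, so it is a loose yardstick for these shifts. The count of genes with an unadjusted p under 0.05, 2 as reported, was 1 in Cy5 alone (8.73% of all kept probes), 5 with the replicate number as a block (9.83%), 4 without replicate 1 of both genotypes (7.83%), and between 1 without wild-type replicate 1 (8.38%) and 9 without PRA transgenic replicate 1 (8.79%) with 1 array left out. The count of genes whose genotypes do not overlap, also 2, was 1 in Cy5 alone (9.65% of all kept probes), 1 with the median over probes (9.93%), 12 without the 3 arrays high in muscle markers (60.3%), 15 without replicate 1 of both genotypes (25.2%), and between 2 and 12 with 1 array left out, with 4 without wild-type replicate 1 (18.2%) and 12 without PRA transgenic replicate 1 (15.3%). Without the muscle arrays, 1 wild-type array (replicate 2) stood against 3 PRA transgenic arrays and was assumed to vary like them, so these values place 1 animal and do not estimate the genotype. The cause of these shifts was not tested, except that fewer arrays overlap less often by construction. Replicate 1 of both genotypes was left out after it was seen to be high in these same genes, so those counts are no test. The counts without PRA transgenic replicate 1 alone, or without wild-type replicate 1 alone, are no test either. Each was the highest array of its genotype in most of these genes. Under the replicate block the genes were Dhx58, Irf7, Ifit2, Rsad2 and Rtp4. The deviations of same-numbered arrays correlated at 0.0895, -0.264 and 0.00375 for replicates 1 to 3. The highest correlation was that of wild-type replicate 3 with PRA transgenic replicate 2 (0.37), and wild-type replicate 2 with PRA transgenic replicate 1 had 0.272. These values gave no sign that the numbers mark pairs, but so few arrays cannot exclude it. By the methods' t-test, 0 of the 38 genes passed its threshold of p and fold change, 0 passed after Benjamini-Hochberg and 2 had an unadjusted p under 0.05, against 0.377%, 0.00292% and 9.21% of all kept probes. Rsad2 had an unadjusted p under 0.05 under every alternative that was run, with log2 fold changes between 0.55 and 0.77. Ifit2 stayed below 0 throughout, but its unadjusted p did not pass in Cy5 alone, without wild-type replicate 1, without the 3 muscle arrays and without replicate 1 of both genotypes.

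Log2 fold changes that turned sign and moved by more than their standard error were as follows. Without the 3 muscle arrays, which leaves 1 wild-type array, they were 0.29 for Gbp3, -0.26 for Gbp5, 0.40 for Ifit1, 0.19 for Iigp1, 0.15 for Irgm1, 0.41 for Isg15, 0.13 for Mx1, 0.074 for Mx2, 0.26 for Oas1a, 0.49 for Oasl2 and 0.29 for Usp18. With the median over probes they were 0.0187 for Irf1, 0.000906 for Parp14, 0.0248 for Parp9, 0.69 for Stat2 and 0.0923 for Xaf1. With 1 array left out in turn the change ran from -0.51 to 0.19 for Irf7, from -0.60 to 0.18 for Oas1a, from -0.34 to 0.34 for Oasl2 and from -0.37 to 0.22 for Usp18, the highest value in each case without wild-type replicate 1. For Ifi44 it ran from -0.58 without wild-type replicate 2 to 0.72 without wild-type replicate 1. A change of sign with a smaller move is not counted here.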
